A study of Mus musculus with 20 samples.

Results

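The 10 genes described here mark the two-cell-like state of mouse embryonic stem cells: Zscan4b, Zscan4c, Zscan4d, Zscan4e, Zscan4f, Tcstv3, Zfp352, Usp17la, Usp17lc and Tmem92. They are 10 of 55450 genes annotated on the main chromosomes in GENCODE M21 (mm10 build), of which 14601 held a peak summit in at least 1 library. A peak of N6-methyladenosine (m6A) belonged to a gene when its summit lay in the gene body on the same strand. By that rule the genes held 113 of 437949 peaks from 10 libraries, and these merged into 17 separate regions. No peak lay on the opposite strand of any of the 10 genes in any library.

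A small, changing fraction of embryonic stem cells passes through a state in which genes of the 2-cell embryo are transcribed, among them the Zscan4 cluster and many genes of young multicopy families. The transcription factor DUX switches on much of this programme, and ZSCAN4 proteins are known for a role in telomere maintenance. METTL3 is the catalytic subunit of the nuclear enzyme complex that writes m6A on RNA, and YTHDC1 is the nuclear protein that reads it.

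The series mapped m6A on RNA purified with the chromatin of mouse embryonic stem cells (strain C57BL/6) kept in 1000 U/ml LIF, 3 μM CHIR99021 (a GSK3 inhibitor) and 1 μM PD0325901 (a MEK inhibitor). Fragments bound by an m6A antibody were sequenced from stranded libraries, and peaks were called in each library. The groups used here were the Mettl3 knockout lines KO1 and KO2 with the Mettl3 control cells, and the Ythdc1 conditional knockout (cKO) with the Ythdc1 control cells. Each group had 2 immunoprecipitated libraries, and the 10 input samples were not analysed here. All cells shared the medium, the strain and the added m6A control RNA. The labels give KO1 and KO2 as 2 knockouts of Mettl3. They do not say whether each is 1 clone, how the cKO was induced, or if both libraries of a group were grown apart.

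Across the genome the libraries held 40959 to 44496 peaks in the Mettl3 knockouts against 45292 and 46735 in the Mettl3 controls, and 45468 and 45599 in the Ythdc1 cKO against 43651 and 41941 in the Ythdc1 controls. The Mettl3 gene itself had no peak in the KO1 libraries and 1 in each KO2 library, against 1 in each Mettl3 control. Ythdc1 RNA held 7 and 6 peaks in the cKO, against 7 in each Ythdc1 control, so peaks in these genes do not check the cKO label. Of 15 embryonic stem cell markers, 12 to 15 held a peak in every library. Of 15 fibroblast and feeder cell markers, 4 held a peak in each Mettl3 knockout library, against 8 in each Mettl3 control, and 5 in each cKO library, against 4 in each Ythdc1 control. Of 14 primitive endoderm and trophoblast markers, 2 held a peak in each KO1 library and 6 and 4 in the KO2 libraries, against 2 in each Mettl3 control, and 7 in each cKO library, against 3 and 5 in the Ythdc1 controls. Their part in the results below was not tested.

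Where a peak fell is shown first by the RNA it covered. The 5 Zscan4 genes lie on chromosome 7, each has 4 exons, and each held a peak over exon 2 and a wider one over exon 4. The highest exon 4 summits lay in the coding sequence, mostly 801 to 941 nt after the first base of the start codon. The exon 4 sequences below start at the same place in each coding sequence, 14 nt before the summit of the highest Zscan4e peak. They are shown because the copies are nearly alike there, and capitals mark bases that differ from the most frequent base of the 5 genes. All sequences are from the GENCODE M21 transcripts, written 5′ to 3′ with T for U, and coordinates are of mm10.
Zscan4b, chr7:10901423-10901452, minus strand: aagtatatagtggtgataatattcccagga
Zscan4c, chr7:11009338-11009367, plus strand: aagtatatagtggtgataatattcccagga
Zscan4d, chr7:11162550-11162579, minus strand: aagtatatagAAgtgataatattcccagga
Zscan4e, chr7:11307052-11307081, minus strand: aagtatataAtggtgataatattcccagga
Zscan4f, chr7:11401531-11401560, plus strand: aagtatatagtggtgataatattcccagga
Over these 30 nt the 5 genes differed at 3 positions, and over the 101 nt around the same point at 7. Across the whole coding sequence, Zscan4b and Zscan4e were 99.7% identical, Zscan4c and Zscan4f 99.6%, and the other pairs 96.4% to 97.7%.

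Exon 2 holds the start codon and the first coding bases of Zscan4. In the Mettl3 libraries most exon 2 summits lay in the 5′ UTR, at −94 to −14 nt from the first base of the start codon. In the Ythdc1 controls most lay inside the coding sequence near a GGAC, the core of the sequence that the METTL3 complex prefers. The stretch directly before the start codon is given for a pair of genes that differ at 1 position, with the start codon in capitals. Most of the 5′ UTR summits lay further upstream than this stretch, and no Zscan4c summit lay in it.
Zscan4b, chr7:10904213-10904242, minus strand: tgaatctttcagaccattgtcaccacaATG
Zscan4c, chr7:11006529-11006558, plus strand: tgaatctttcacaccattgtcaccacaATG
The coding stretch around the GGAC (capitals) was the same in all 5 genes over 29 nt, and its A lay 277 nt after the first base of the start codon in each. It is shown once, as the site closest to the exon 2 summits of the Ythdc1 controls.
Zscan4b, chr7:10903924-10903952, minus strand: tgggcactgcaaGGACaagtatgctttga

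The summits of the other genes lay in unlike sequence. The windows below reach 14 nt to each side of a summit, and capitals mark GGAC. Those of Tcstv3, Zfp352 and Usp17la are shown as peaks of the Mettl3 controls that neither knockout held, that of Usp17lc as the highest peak outside Zscan4, and those of Tmem92 as 2 of its 3 sites in the 3′ UTR, where no other of the 10 genes had a summit.
Tcstv3, chr13:120317820-120317848, plus strand, exon 2, coding: ctgccatgaagaagggcacagaggtcttc
Zfp352, chr4:90223905-90223933, plus strand, exon 2, coding: caggtctttaccatacacagctcaacagc
Usp17la, chr7:104861564-104861592, plus strand, exon 3, coding: attgtgattcaccagcccagatccactgc
Usp17lc, chr7:103418969-103418997, plus strand, exon 2, coding: cagggatgctccagacaaggagaatcaac
Tmem92, chr11:94778367-94778395, minus strand, exon 5, 3′ UTR: gcttgctctgccatcctacagcagcactt
Tmem92, chr11:94778016-94778044, minus strand, exon 5, 3′ UTR: tctagtcctgGGACctgctttcctgggcg
GGAC, searched on the sense strand only, stood within 50 nt of 12 of the 34 distinct exonic summit positions of the 10 genes. Of all 101-nt windows laid end to end over the longest protein-coding transcript of 21877 genes, 31.9% held it. The longer GGACT, which contains GGAC, stood at 1 of the 34 positions, in Tcstv3, against 9.88% of those windows. Many Zscan4 windows share their bases, so the 34 positions are not independent. Inside the peak regions GGAC occurred 3.55 times per kb of transcript, against 2.73 times per kb in the rest of the same transcripts. It was denser inside the regions in 6 of the 10 genes and sparser in Zscan4d, Zscan4e, Zscan4f and Usp17la. The densities were close in Zscan4d (2.62 per kb inside, 2.67 outside) and Tcstv3 (2.72 and 2.43). For Zscan4b, Zscan4e and Zscan4f the stretch outside the regions was short.

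Mettl3 loss was compared with its control first. The 10 genes held fewer peaks in every Mettl3 knockout library than in either control. There were 4 and 6 peaks in the KO1 libraries and 14 and 12 in the KO2 libraries, against 19 in each Mettl3 control. The means were 5 ± 1.41 in KO1 and 13 ± 1.41 in KO2, against 19 ± 0 in the controls (SD, n = 2 each). All 10 genes held a peak in both controls, while 4 and 5 did in KO1 and 7 and 6 in KO2. The peaks covered 770 and 1517 bp in KO1 and 8058 and 7777 bp in KO2, against 12789 and 12677 bp in the controls. KO1 was lowest, KO2 lay between and the controls were highest in both measures. The totals of all peaks had the same order, with 40959 and 41004 in KO1 and 44496 and 42804 in KO2, against 45292 and 46735 in the controls, and their part in the result was not tested.

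**Figure D1:**
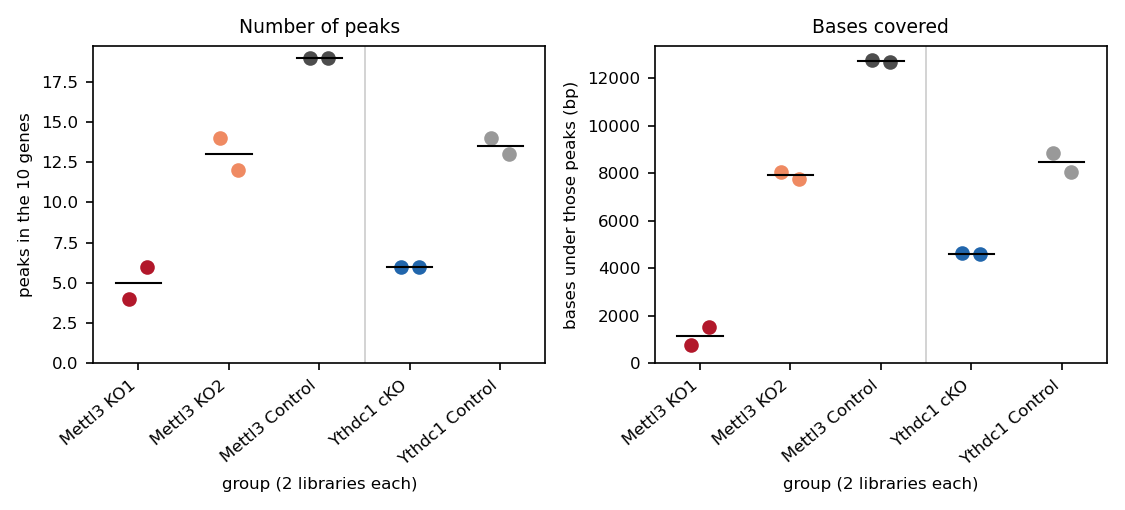
Number of peaks in the 10 genes (left) and bases under those peaks in bp (right) for each group of 2 libraries, as 1 point per library with a line at the group mean. The KO1 points (4 and 6 peaks) and the KO2 points (14 and 12) lie below the Mettl3 controls (19 each), and the Ythdc1 cKO points (6 each) lie below the Ythdc1 controls (14 and 13).

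No test was made on these counts, because the genes were chosen with earlier results known. With 4 knockout and 2 control libraries the smallest p an exact permutation test allows is 0.0667, and with 2 against 2 libraries it is 0.333, two-sided. The peak lists give no level of the RNA itself. In such bulk samples fewer cells in the two-cell-like state, less RNA per cell and less m6A on the RNA cannot be told apart.

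Peak height is given as the authors' deposited fold, the pile-up of reads at the summit over the local background, or as the percentile of that fold within its own list, where 100 is the highest peak. Both Mettl3 controls had a peak in 18 regions of these genes, and 5 of the 18 had none in any of the 4 knockout libraries (27.8%), 3 had one in all 4 and none was gained. Over all genes, 13.1% of control regions were lost in this way, 57.7% were kept, and 4.38% of knockout regions were gained. Of the 3 kept regions, 1 had a lower fold in all 4 knockout libraries than in both controls (against 23.3% of all kept regions) and none was higher (against 9.85%).

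The lines gave different counts. In KO1 alone 12 of the 18 regions were lost (66.7%, against 24.3% over all genes), 3 were kept (against 64.6%) and none was gained (against 12.3%). In KO2 alone 5 of the 18 were lost (27.8%, against 18.4%), 12 were kept (against 70.3%) and none was gained (against 14.7%). All 3 regions kept in KO1 had a lower fold in both of its libraries (against 38.2% of all kept regions) and none was higher (against 19.2%). For Zscan4f exon 4 that call rests on 7.37-fold in the higher KO1 library, against 7.41-fold in the lower control, and its percentiles overlapped, at 66.1 and 84.1 in KO1, against 86.3 and 81.4 in the controls. Of the 12 kept in KO2, 4 were lower (against 35.6%) and 2 were higher (against 22.2%). KO1 and KO2 were set against the same controls, so these counts are not independent. Regions of near-identical copies, which can share reads, are not independent either.

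Over all genes the highest regions were lost least often, so the losses were also read by height. All control regions were ranked by the lower of their 2 within-list percentiles and cut into 5 height classes of like size, with class 1 the lowest. In KO1 the genes lost 1 of 1, 3 of 3, 3 of 3, 4 of 5 and 1 of 6 regions in classes 1 to 5, against 31.5%, 38.9%, 30.1%, 15.7% and 5.04% of all control regions. In KO2 they lost 1 of 1, 2 of 3, 1 of 3, 1 of 5 and 0 of 6, against 29.9%, 30%, 21.8%, 9.3% and 1.19%. With the lines together the same counts stood against 20.1%, 22.6%, 15.7%, 6.61% and 0.643%. The KO1 counts in classes 2 to 4 were 10 of 11, above the background of each of those classes, while single regions decide each KO2 count. Exon 2 of Zscan4b, Zscan4d, Zscan4e and Zscan4f is among those 10 lost regions. These copies can share reads, so their regions are not independent.

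Every control region was lost in 3 of the 10 genes in both lines, namely Tcstv3, Zfp352 and Usp17la, against 4.85% of genes over the series. These genes held few control regions each, and the background was not matched for the number of regions per gene. In KO1 Tmem92 joined them, against 10.8% of genes, and in KO2 the same 3 genes were counted, against 7.13%.

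**Figure D2:**
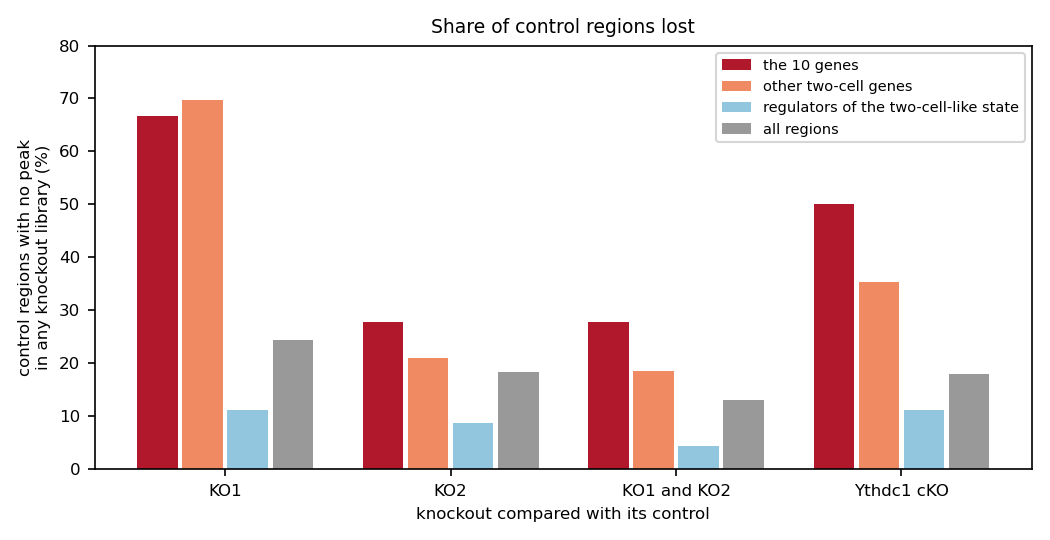
Percentage of control regions with no peak in any knockout library (y axis) for KO1, KO2, both lines together and the Ythdc1 cKO (x axis), for the 10 genes, other two-cell genes, regulators of the state and all regions of the genome. The 10 genes stand at 66.7% in KO1 and 27.8% in KO2, and at 50% in the cKO, against 24.3%, 18.4% and 17.9% of all regions. The other two-cell genes include near copies of the 10 genes, so these bars are not independent.

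The Zscan4 genes code for SCAN-domain zinc finger proteins. Their exon 4 peaks were the ones that stayed in most knockout libraries, and they covered fewer bases in KO1 than in the Mettl3 controls.

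Zscan4b exon 4 reached 3.59- and 2.65-fold in KO1 and 10.04- and 7.03-fold in KO2, against 11.6- and 11.1-fold in the Mettl3 controls. Zscan4c exon 4 had no peak in 1 KO1 library and 2.86-fold in the other, 8.28- and 7.87-fold in KO2, against 10.7- and 12.9-fold in the controls. In both genes every knockout peak was below both controls.
Zscan4d exon 4 had no peak in 1 KO1 library and 3.49-fold in the other, 9.42- and 11.2-fold in KO2, against 10.1- and 11.7-fold in the controls, so KO1 was lower and KO2 overlapped the controls. Zscan4e exon 4 reached 4.26- and 4.21-fold in KO1 and 11.98- and 10.97-fold in KO2, against 7.47- and 9.40-fold in the controls. At Zscan4e exon 4 the KO1 folds thus lay below the controls, while the KO2 folds lay above them. Zscan4f exon 4 reached 5.38- and 7.37-fold in KO1 and 8.54- and 7.502-fold in KO2, against 8.79- and 7.41-fold in the controls, and its fold was the highest of the 5 genes in KO1.
Taking the highest exon 4 peak of each gene in each library, the within-list percentile ran from 10.4 to 84.1 in KO1 and from 77.7 to 95.8 in KO2, against 79.3 to 97.2 in the controls. The 3 exon 4 regions that were kept in all 4 knockout libraries were those of Zscan4b, Zscan4e and Zscan4f. Of these, Zscan4b was lower in all 4, where 23.3% of all kept regions were.

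**Figure D3:**
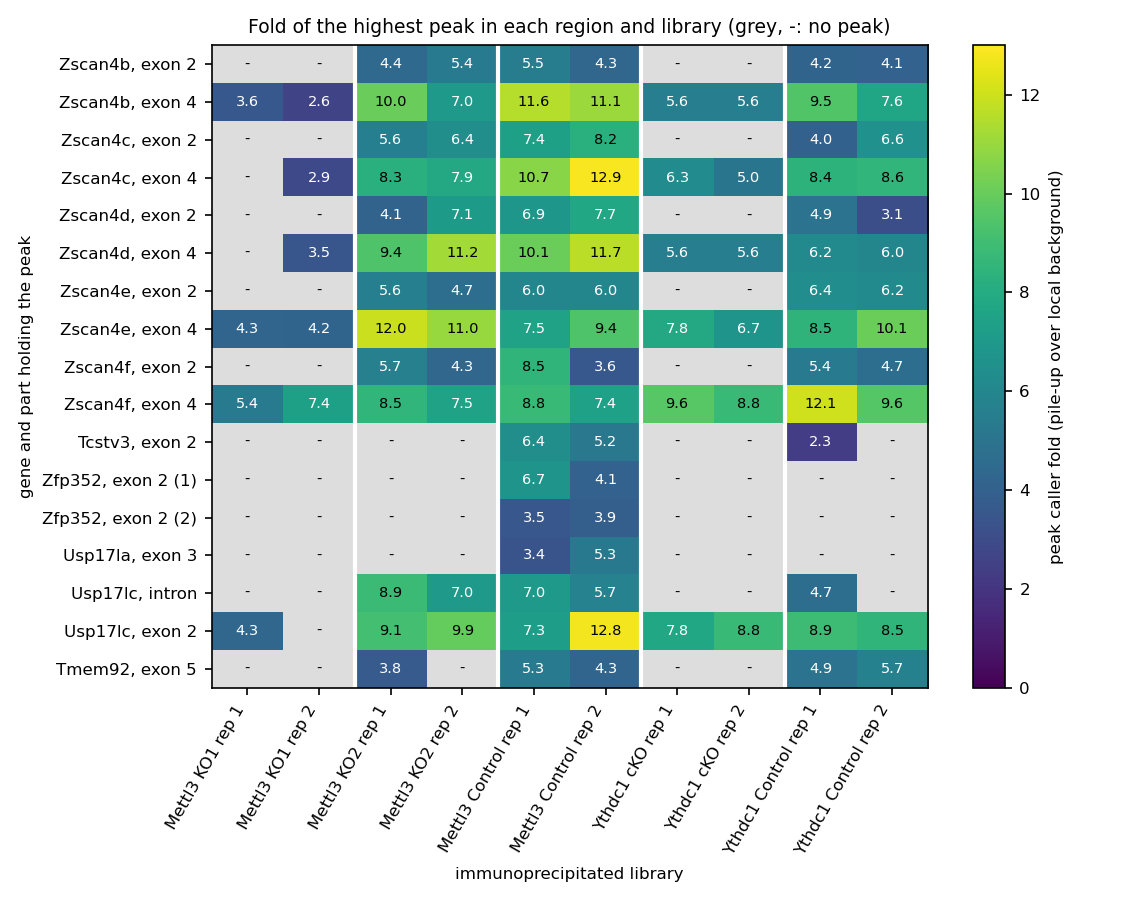
Fold of the highest peak (colour and printed value) in each of the 17 regions of the 10 genes (rows, by gene and exon) in each of the 10 libraries (columns), with grey cells where no peak was called. The exon 2 rows of Zscan4b to Zscan4f are grey in both KO1 and both Ythdc1 cKO libraries, and the rows of Tcstv3, Zfp352 and Usp17la have values in both Mettl3 control libraries and in no knockout library.

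Between KO1 and the controls the bases covered differed more than the fold. At exon 4 the peaks covered 150 to 681 bp per gene in KO1 and 824 to 1406 bp in KO2, against 1089 to 1448 bp in the Mettl3 controls. Since the fold divides by a local background, the reads behind it were solved from the deposited fold and p-value. At the Zscan4b exon 4 summit they came to 58 and 43 reads in KO1 (95% Poisson intervals 44.0 to 75.0 and 31.1 to 57.9) and 162 and 142 in KO2, against 268 and 269 in the controls (intervals 237 to 302 and 238 to 303). The intervals cover counting error only. At the highest exon 4 peak of each of the 5 genes in each library the pile-up held 43 to 128 reads in KO1 and 142 to 277 in KO2, against 248 to 391 in the controls. Zscan4f held the most reads of the 5 genes in every library, with 92 and 128 in KO1 and 277 and 250 in KO2, against 347 and 391 in the controls. The copies can share reads, so the 5 genes are not 5 separate results.

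The local background moved with these counts. At the exon 4 summits it stood at 1.00 times the level most common in the same library and strand in every KO1 peak and at 1.00 to 2.18 times in KO2, against 1.13 to 2.86 times in the Mettl3 controls. That most common level itself was similar, 14.1 to 16.5 reads in the Mettl3 knockouts against 15.4 to 18.15 in the controls. At Zscan4e exon 4, the local background was 1.12 and 1.17 times that level in KO2, against 2.34 and 1.84 times in the controls. There the pile-up was 216 and 191 reads in KO2, against 276 and 303 in the controls, so fewer reads gave a higher fold. Whether the background was estimated from an input or from the immunoprecipitated library itself is not stated in the sources used here, and its part in the folds was not tested.

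**Figure D4:**
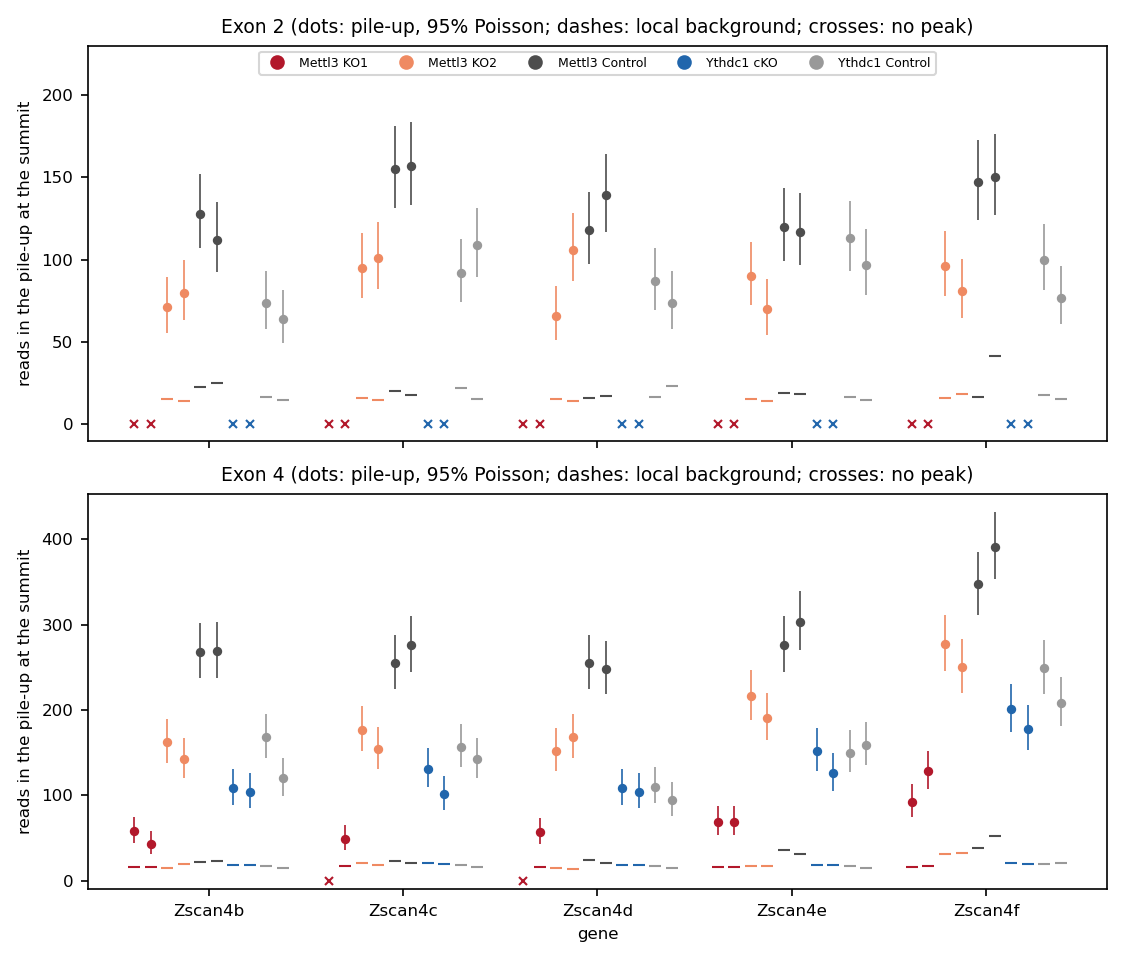
Reads in the pile-up at the highest exon 2 peak (top) and exon 4 peak (bottom) of each Zscan4 gene in each library, with 95% Poisson intervals, the local background as dashes and crosses at 0 where no peak was called. At exon 4 the KO1 points lie between 43 and 128 reads and the KO2 points between 142 and 277, against 248 to 391 in the Mettl3 controls.

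The exon 2 peaks of Zscan4 separated the lines completely. None of the 5 genes had a peak there in either KO1 library, while all 5 had one in both KO2 libraries and both controls. In KO2 the exon 2 folds were 4.13 to 7.09, against 3.56 to 8.51 in the controls. At the highest exon 2 peak of each gene the pile-up held 66 to 106 reads in KO2, against 112 to 157 in the controls. The bases covered per gene at exon 2 also differed, with 150 to 457 bp in KO2, against 399 to 621 bp in the controls. In KO1 the fewest reads that gave a peak anywhere at the common background were 33 to 35, so a pile-up under that size would not have been listed. Zscan4c exon 2, for example, held 95 and 101 reads in KO2, against 155 and 157 in the controls.

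**Figure D5:**
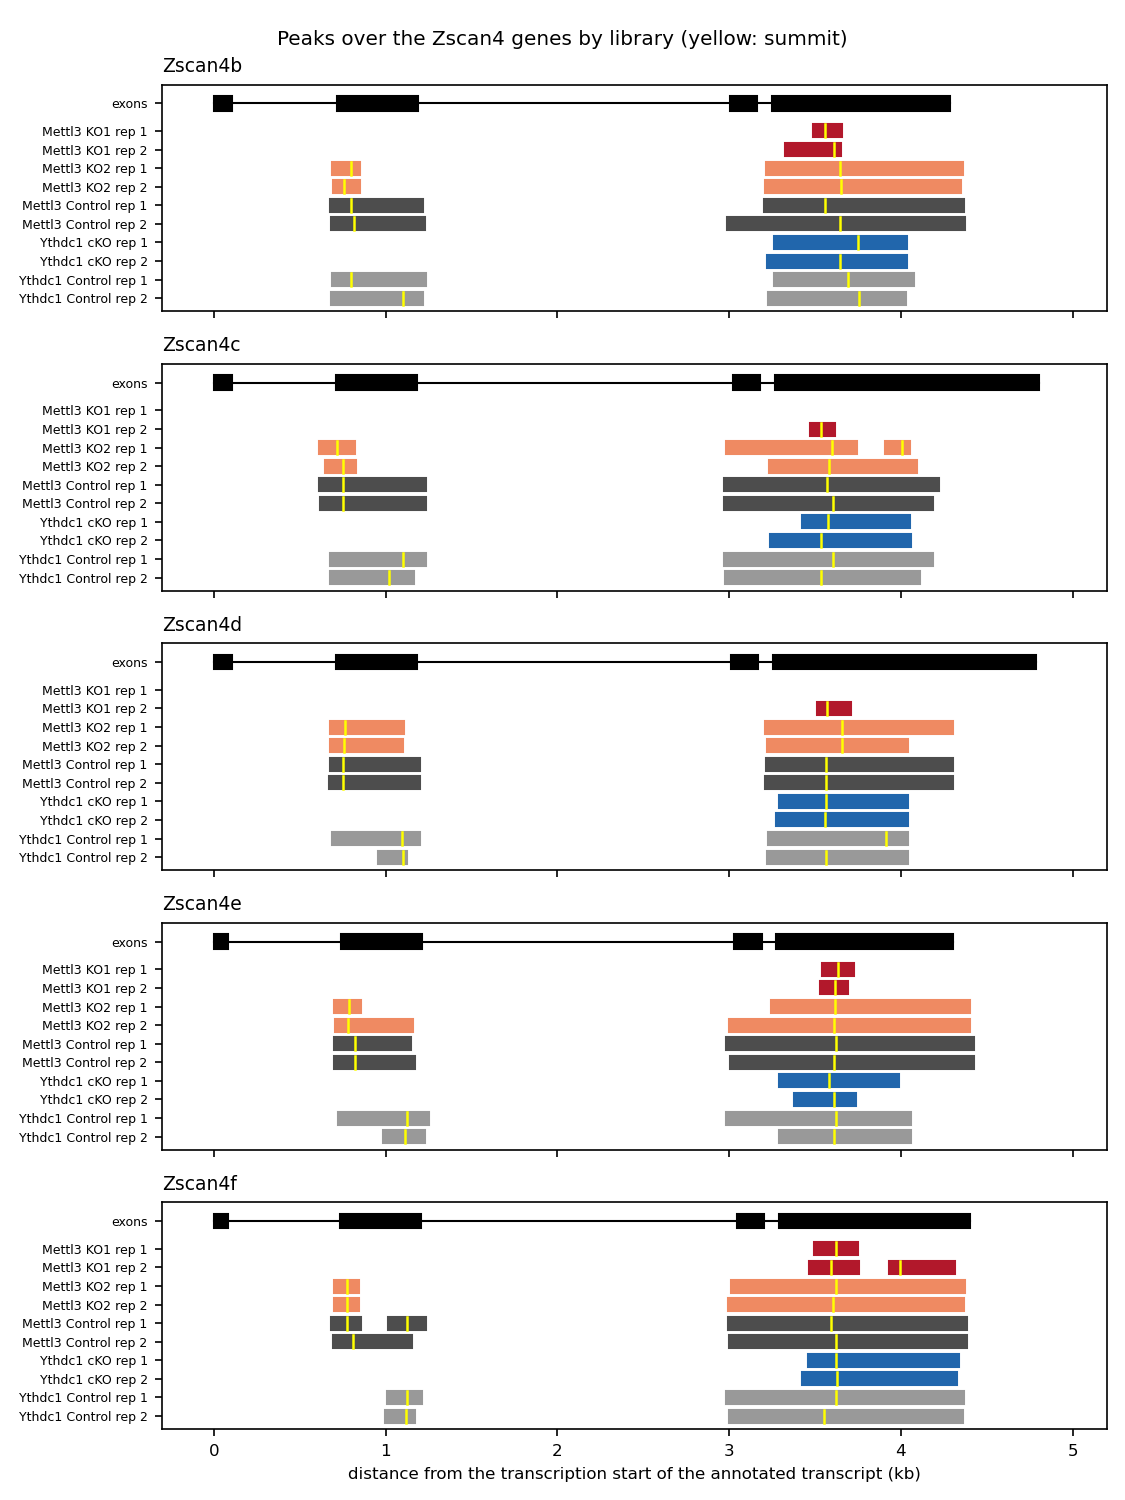
Peaks (bars, coloured by group) and summits (yellow lines) over Zscan4b to Zscan4f in each library (rows), by distance in kb from the transcription start, with exons as black boxes. Exon 2 bars are missing from both KO1 and both Ythdc1 cKO rows of every gene. Zscan4c and Zscan4d also have no exon 4 bar in the first KO1 row. Where present, the exon 4 bars of a gene together cover 150 to 681 bp in a KO1 row, against 1089 to 1448 bp in the Mettl3 controls.

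Tcstv3, a member of a multicopy family named for variable transcripts of the 2-cell stage, had a peak in exon 2 on chromosome 13 with no peak in any Mettl3 knockout library, against 6.44- and 5.22-fold in the Mettl3 controls. Its pile-up in the controls was 111 and 99 reads, at 1.00 times the common background. The near copy Tcstv1, whose coding sequence is 93.6% identical, had no peak in KO1 and a peak of 3.77-fold in 1 KO2 library, against 5.96- and 6.58-fold in the controls.

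Zfp352, a zinc finger gene transcribed in early embryos, had peaks in the coding part of exon 2 on chromosome 4. The first region had no peak in any knockout library, against 6.73- and 4.07-fold in the Mettl3 controls, and the second had none, against 3.51- and 3.92-fold. Both lay at or below the 73.8 percentile of their lists.

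Usp17la and Usp17lc belong to a family of deubiquitinating enzymes, and their coding sequences are 90.7% identical. Usp17la had a peak in exon 3 in neither line, against 3.39- and 5.27-fold in the Mettl3 controls. Usp17lc exon 2 had 4.28-fold in 1 KO1 library and no peak in the other, and 9.11- and 9.93-fold in KO2, against 7.31- and 12.8-fold in the controls. An intron of Usp17lc (chr7:103416067-103416294, plus strand) held the only intronic region of the 10 genes. It had no peak in KO1 and 8.88- and 7.04-fold in KO2, against 7.02- and 5.74-fold in the controls.

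Tmem92, which codes for a transmembrane protein, held its peaks in the 3′ UTR on chromosome 11, the only one of the 10 genes to do so. The region nearer the 3′ end had no peak in KO1, 3.76-fold in 1 KO2 library and none in the other, against 5.30- and 4.26-fold in the Mettl3 controls. The region nearer the stop codon had no peak in any knockout library, against 4.63- and 2.93-fold in the controls.

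Loss of the reader was compared with its own control over the same genes. They held 6 peaks in each Ythdc1 cKO library, against 14 and 13 in the Ythdc1 controls, with means of 6 ± 0 and 13.5 ± 0.707 (SD, n = 2 each). The peaks covered 4634 and 4599 bp in the cKO, against 8881 and 8069 bp in the controls. Of 12 regions with a peak in both controls, 6 had none in either cKO library (50%, against 17.9% of all control regions), 6 were kept (against 72.2%) and none was gained (against 28% of cKO regions). The 6 lost regions were exon 2 of all 5 Zscan4 genes and the 3′ UTR of Tmem92. These parts had no peak in either KO1 library as well. In KO2, however, exon 2 of all 5 Zscan4 genes had a peak in both libraries and the 3′ UTR of Tmem92 had one in 1 library. The 6 kept regions were exon 4 of all 5 Zscan4 genes and exon 2 of Usp17lc. The Zscan4 copies can share reads, so their regions are not independent. Tmem92 was the 1 gene of 7 that lost every control region, against 8.59% of genes over the series. By height class, the genes lost 1 of 1 region in class 1 (against 34.3%), 4 of 4 in class 3 (against 19%), 1 of 2 in class 4 (against 8.18%) and 0 of 5 in class 5 (against 1.55%). Class 2, where 26.4% of all control regions were lost, held none of their regions. The common background was higher in the cKO, at 17.9 to 20.03 reads, against 14.9 to 17.8 in the controls, and the lists held more peaks.

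At exon 4 the fold was lower in both cKO libraries for 4 of the 5 Zscan4 genes. Zscan4b reached 5.57- and 5.56-fold in the cKO, against 9.46- and 7.62-fold in the Ythdc1 controls. Zscan4c reached 6.28- and 5.03-fold, against 8.42- and 8.57-fold. Both genes had no overlap between the groups.
Zscan4d reached 5.57- and 5.56-fold in the cKO, against 6.22- and 5.98-fold, and Zscan4e 7.82- and 6.73-fold, against 8.46- and 10.1-fold, again without overlap. Zscan4f, at 9.61- and 8.83-fold in the cKO, against 12.1- and 9.56-fold in the controls, overlapped. Usp17lc exon 2, at 7.75- and 8.83-fold, against 8.90- and 8.51-fold, overlapped too. So 4 of the 6 kept regions were lower in both cKO libraries (against 31.6% of all kept regions) and none was higher (against 27.9%).
The pile-up at exon 4 did not separate in every gene. Zscan4d held 108 and 104 reads in the cKO, against 110 and 94 in the Ythdc1 controls. Zscan4e held 152 and 126, against 150 and 159, so its reads overlapped though its folds did not. Usp17lc exon 2 held 162 and 178, against 170 and 141. Without overlap, Zscan4b held 108 and 104 reads in the cKO, against 168 and 120. Zscan4c held 131 and 101, against 157 and 142, and Zscan4f 201 and 178, against 249 and 208. The local background at exon 4 was 1.00 times the common level in every cKO peak, against 1.00 to 1.33 times in the controls. That common level was itself higher in the cKO, as given above, and the reads were not scaled to it.

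Exon 2 was the part without a cKO peak. There the Ythdc1 controls held 64 to 113 reads and 3.11- to 6.59-fold, at a within-list percentile of 17.0 to 74.6. In the cKO the fewest reads that gave a peak at the common background were 37 to 41. Tmem92 had no peak in the cKO, against 4.93- and 5.73-fold in the Ythdc1 controls. Tcstv3 had none in the cKO, against 2.34-fold in 1 control library and none in the other, and the Usp17lc intron none, against 4.69-fold in 1 control library and none in the other. Zfp352 and Usp17la had no peak in any Ythdc1 library, so the comparison says nothing about them.

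The position of the exon 2 summit differed between the series of Mettl3 and Ythdc1 libraries. It lay in the 5′ UTR in all 10 KO2 peaks and in 9 of the 11 Mettl3 control peaks, but in 1 of the 10 Ythdc1 control peaks. In the Ythdc1 controls the other 9 lay 209 to 292 nt after the first base of the start codon, around the GGAC shown above. The Mettl3 and Ythdc1 cells have controls of their own, so cells and library preparation cannot be told apart here.

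Near-identical copies limit what can be said of single genes. Of the 101-nt windows around the distinct Zscan4 summits, all had at least 95% identity to a transcript of another gene of the cluster, and the exon 2 coding window of Zscan4c at its second site was identical in 7 other genes, pseudogenes included. How reads with several matches were placed is not stated in the sources used here, so the split of reads among Zscan4b to Zscan4f is uncertain, as it is for Usp17lc and its copy Usp17ld, which are 98.4% identical. The same uncertainty holds for Tcstv3 and Usp17la and their near copies. The summit windows of Tmem92 matched no other transcript at this search depth, and those of Zfp352 matched at most its pseudogene Zfp353-ps at 99.0%.
Copies outside the 10 genes were counted in the same way. Zscan4a had no peak in 1 KO1 library and 3.43-fold in the other, and 12.3- and 12.6-fold in KO2, against 15.9- and 10.95-fold in the Mettl3 controls. The pseudogene Zscan4-ps2 reached 3.82- and 5.43-fold in KO1 and 7.79- and 8.79-fold in KO2, against 9.49- and 8.89-fold in the controls. Usp17le had no peak in KO1 and 4.81- and 4.90-fold in KO2, against 12.5- and 11.3-fold in the controls. In the cKO, Zscan4a reached 5.06- and 4.504-fold, against 7.22- and 8.18-fold in the Ythdc1 controls.

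A wider list of 58 two-cell genes, 55 of them annotated, gave 8 genes with a peak in each KO1 library and 29 and 27 in KO2, against 31 and 32 in the Mettl3 controls. Of their 43 control regions, 69.8% were lost in KO1 (against 24.3% of all regions), 20.9% in KO2 (against 18.4%) and 18.6% in both lines together (against 13.1%), so the KO2 share was close to its background. In KO1, every control region was lost in 21 of 30 such genes, against 10.8% of all genes. In the Ythdc1 cKO 21 and 19 genes held a peak, against 26 in each control, and 12 of 34 control regions were lost (35.3%, against 17.9% of all regions). Duxf3, the gene of the factor DUX, had no peak in any library.
The named genes with a lost region, taken by the height of the peak in the controls, were Gm12794 (5.87-fold), Lmx1a (5.64-fold), Usp17ld (5.54-fold) and Zscan4a (5.42-fold) in the Mettl3 knockouts. Gm2016 (5.81-fold), Abcb5 (5.60-fold), Gm8300 (5.57-fold), Zscan4-ps2 (5.56-fold), Fbxo15 (5.04-fold) and Gm4027 (4.80-fold) followed in the cKO. Regions of Gm12794 and Zscan4a were lost in the cKO as well, and one of Zscan4-ps2 in the Mettl3 knockouts. Lmx1a is a homeobox gene, Abcb5 codes for a membrane transporter and Fbxo15 for an F-box protein active in embryonic stem cells. Of 22 regions with a peak in both cKO libraries, 4 were gained (18.2%, against 28% of all such regions). They lay in Zfp54 (2 regions), Lmx1a and Snai1, which were named after their values were seen.

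Of 40 genes known to hold back or promote the two-cell-like state, 33 to 38 held a peak in each library. Of their 161 control regions, 121 were kept in all 4 Mettl3 knockout libraries. The lost share was 4.35% in both lines together (against 13.1% of all regions), 11.2% in KO1 (against 24.3%) and 8.7% in KO2 (against 18.4%). In the Ythdc1 cKO 140 of 180 control regions were kept and 11.1% were lost (against 17.9%). The named genes among them were Kat5, an acetyltransferase, with a lost region of up to 6.33-fold in the Ythdc1 controls, Lin28a, an RNA-binding protein (5.71-fold), Dppa2, which helps activate Dux (5.54-fold), and Chaf1a, a histone chaperone subunit whose loss induces two-cell-like cells (5.49-fold). In the Mettl3 knockouts 3 of 130 regions were gained (2.31%, against 4.38% of all such regions). Among them, L3mbtl2 gained a region of up to 5.83-fold and the deacetylase gene Hdac1 one of up to 5.40-fold.

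The genes whose pattern over the 10 libraries was most like that of a member were found by the distance between their highest within-list percentiles, over 12186 protein-coding genes with a peak. They were Gm9048 and Stc2 for Zscan4b (distances 30.2 and 34.3 percentile points), and Gm9048 and Antxr1 for Zscan4c (22.1 and 26.3). For Zscan4e they were Mkks and Tmx4 (15.7 and 19.1), and for Zscan4f Catsperb and Kdm5a (10.2 and 11.8). Tcstv3 was nearest to BC147527 and Sdha (6.58 and 7.09), Usp17lc to Gm9046 and Tnfrsf8 (25.5 and 27.2) and Tmem92 to B3gnt4 and Coro6 (23.0 and 31.0). BC147527 was 96.0% identical to the window around the Tcstv3 summit of 1 Ythdc1 control library, so it can share reads with Tcstv3. Tcstv3 had a peak in only 3 libraries, so few values shape its distances. Zfp352 and Usp17la had peaks in fewer than 3 libraries and were left out. Among the 10 genes themselves, Zscan4c at 33.9 points was nearer to Zscan4b than Stc2 was. A match in this measure says nothing of shared function or control.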

How the data were processed

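RNA of the chromatin fraction was freed of ribosomal RNA, given the kit's m6A control RNA, fragmented and immunoprecipitated, per the labels' protocols. The submitters' processing notes name HISAT2 2.1.0, Trimmomatic 0.38, CASAVA and MACS2, with the mm10 build. The sources used here do not state the version and settings of MACS2 or whether inputs were used. Each deposited list gives, for each peak of 1 library and strand, a display score, the authors' fold enrichment (a ratio) at the summit, the −log10 of the p-value and q-value, and the summit position. Per the values, no peak was under 150 bp or a −log10 q of 2.00.

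The 10 genes and all gene lists were chosen with earlier results of these data known. Summits were assigned to GENCODE M21 gene bodies by strand, and peaks of each comparison that shared 1 bp or more on a strand were merged. A region was lost with a peak in both controls and no knockout library, gained with a peak in every knockout library and no control, and kept with a peak in every library. A whole number of reads and a local background were found from the deposited fold and p-value under the Poisson model, taking the fold as (reads + 1) over (background + 1). This matched the deposited p-value within 0.002 on the −log10 scale for 100% of the peaks tried (98.3% of all; those with the smallest p-values were left out) and was checked on simulated data. The read total per library is unknown. The common background, 14.1 to 20.03 reads, stands in for depth, and a weaker peak can go unlisted. No test was made. Named genes were the 10 members, the 2 genes most like each, up to 10 other two-cell genes and up to 6 regulators with a lost or gained region, by height. The genes most like Zscan4d are not reported here. Copies were sought with blastn 2.17.0 and motifs with Python 3.11.15 (pandas 2.3.3, Biopython 1.88).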

Additional observations from a re-analysis of the deposited data

Results flagged for a closer look

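For 2 regions the KO1 and KO2 lines lay on opposite sides of the Mettl3 controls. At exon 4 of Zscan4e the fold was 4.26 and 4.21 in the KO1 libraries and 11.98 and 10.97 in the KO2 libraries, against 7.47 and 9.40 in the Mettl3 controls. In the Usp17lc intron the KO1 libraries had no peak, entered as 0 and 0, and the KO2 libraries had 8.88- and 7.04-fold, against 7.02- and 5.74-fold in the controls. The difference between the lines was not tested in either region, since 2 libraries per line allow no exact permutation p under 0.333. At Zscan4e the pile-up was 69 reads in each KO1 library and 216 and 191 reads in KO2, against 276 and 303 in the controls, and the local background was 1.00 times the common level in KO1 and 1.12 and 1.17 times in KO2, against 2.34 and 1.84 times in the controls. In the Usp17lc intron the pile-up was 151 and 111 reads in KO2, against 121 and 109 in the controls, and the local background was at the common level in all 4 libraries.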

How the results depend on the processing

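No paired analysis was possible because the results come from no test, and nothing says that equal replicate numbers share a culture. The peaks per library differed by −10 between the Mettl3 knockouts and controls, by −14 with KO1 alone and by −6 with KO2 alone, and by −11.7 to −8.33 when 1 library was left out. Lost regions numbered 5 with both lines, 12 with KO1 alone, and 5 to 6 without 1 library. Genes that lost every region numbered 3, and 3 to 4 without 1 library. For the Ythdc1 cKO the peaks differed by −7.5, by −6.5 among peaks with a −log10 q of at least 5, and by −8 to −7 without 1 library. There 6 regions were lost (6 to 8 without 1 library). Genes that lost every region numbered 1, but 2 when summits within 100 bp were merged and 2 without the second Ythdc1 control library (1 to 2 over the libraries left out). No region was gained in either comparison under any setting. Assignment by any overlap or either strand changed none of these counts. Extending genes by 1 kb at the 3′ end gave −11.5 peaks and 6 lost regions in the Mettl3 comparison. Depth limits every absence: below 32 to 41 reads, no peak could be listed at the common background.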

Other observations

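The highest exon 4 peaks of Zscan4b and Zscan4d had the same fold in both Ythdc1 cKO libraries, 5.57 and 5.56. Both genes lie on the minus strand and had the same local background. The equal pile-up, 108 and 104 reads, therefore follows from the equal fold and is no separate match. The summits of these peaks lay at different places, 1035 and 934 nt after the first base of the start codon in Zscan4b and 844 and 841 nt in Zscan4d. In the Ythdc1 controls the pile-ups of these genes were 168 and 120 reads in Zscan4b and 110 and 94 in Zscan4d.

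In the first Mettl3 control library Zscan4f had 2 separate exon 2 peaks, 1 in the 5′ UTR with 147 reads and 1 at 291 nt after the first base of the start codon with 96 reads. That second position is where both Ythdc1 controls had their only exon 2 peak in that gene, with 100 and 77 reads.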
